A study of Mus musculus with 7 samples.

Results

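Dcn, Lum, Ogn, Fmod, Islr, Foxc1, Aldh1a2, Slc6a13, Slc22a6 and Slc47a1 are genes of meningeal and perivascular fibroblasts, and were taken by symbol from count tables of tissue around the brain ventricles. All 10 were present in each of the 7 tables, among 32531 symbols. The mice were adults of the Dcdc2a-EGFP/Rpl10a line ES2575, in which Dcdc2a regulatory sequence drives EGFP fused to the ribosomal protein Rpl10a. Tagged polysomes were captured from homogenised tissue with anti-EGFP beads, a method called translating ribosome affinity purification (TRAP). The 3 libraries of this ribosome-bound RNA (IP, numbered 1, 3 and 4) were compared with 4 libraries of total RNA (Input, numbered 1 to 4). Both groups carry the transgene. An IP numbered 2 and a pull-down from mice without the tag were not analysed here. The labels give neither sex nor how many animals went into a library, and the tag marks every cell in which the Dcdc2a construct is active, whatever its type. The series describes its purpose as profiling the ependymal cells that line the ventricles.

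Fibroblasts of the brain sit in the pia and arachnoid, the inner layers of the meninges, in the stroma of the choroid plexus and around larger vessels. They lay down collagens and small leucine-rich proteoglycans, which bind collagen fibrils and set their spacing. Meningeal fibroblasts also make retinoic acid, a signal to the developing cortex, and carry solute transporters that move organic anions and neurotransmitters between cerebrospinal fluid and tissue. The forkhead factor Foxc1 is needed for the meninges to form.

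Counts assigned to genes ran from 37203427 in Input 3 to 52175180 in IP 1. At that depth 3 reads in a library correspond to 0.0585 to 0.0819 counts-per-million (CPM), which covers counting error only. CPM below are on the scale of TMM, edgeR's correction of library size. IP 1 stood apart from IP 3 and IP 4. Foxj1, the factor that drives motile cilia, was at 32.2 CPM in IP 1, 345 in IP 3 and 427 in IP 4, against 4.34 to 13 in Input. Dcdc2a itself was at 43.6 CPM in IP 1, inside its Input range of 27.7 to 73.9, and at 411 in IP 3 and 175 in IP 4. Over all libraries its edgeR adjusted p was 0.0743 (log2 fold 2.21 ± 0.63 SE), and without IP 1 it was called (2.69, edgeR adjusted p = 0.00205). All 10 listed ependymal markers were called higher in IP. That list was chosen with earlier results of these data known, so the count is a description and no check of the labels. With the replicate block described below, 5 of the 10 ependymal markers were called.

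Promoter letters were read for Aldh1a2, the member that stayed called when libraries were paired by lane. They were also read for the pair of proteoglycan genes Fmod and Ogn, which sit on different chromosomes. Both were higher in IP, as were all 9 called members, so direction does not set this pair apart. RefSeq (GRCm38.p6) gave windows of 300 bases, 250 of them before the start, for 7 of the 10 genes and 9 starts in all. Dcn, Lum and Slc47a1 were not matched. Printed here are the 70 bases before the start and the first 30 after it, all on the plus strand. Capitals in Fmod and Ogn mark TTATTCAGCAG, the longest run these windows share, and in Aldh1a2 the letters TATATA.
Aldh1a2, chr9:71215719-71215818: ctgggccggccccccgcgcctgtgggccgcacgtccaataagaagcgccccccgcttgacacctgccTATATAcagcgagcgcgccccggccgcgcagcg
Fmod, chr1:134037184-134037283: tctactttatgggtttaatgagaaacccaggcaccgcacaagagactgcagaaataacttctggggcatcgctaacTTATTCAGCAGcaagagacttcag
Ogn, chr13:49607945-49608044: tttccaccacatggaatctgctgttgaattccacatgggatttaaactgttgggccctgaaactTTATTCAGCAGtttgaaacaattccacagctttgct

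The shared run of 11 bases crosses the RefSeq start in Ogn and lies just after it in Fmod. By the GENCODE start of Ogn, 49608046, used below, all printed Ogn bases lie before the gene, as they end at 49608044. It was picked after the sequences were read, and searched on both strands it occurred in 10 of 32851 RefSeq windows, or 0.0304%. Among all pairs of member windows, one Slc6a13 start and Islr also shared 11 bases, a run of alternating G and T. TATATA was in 5.67% of windows and in Aldh1a2 alone among the member windows. There it begins 3 bases before the RefSeq start and crosses it. TATAAA, the usual TATA box, was in 13.6% of windows and among the members only in Ogn. GTAAACA, a forkhead core motif, was in 3.65% of all windows and in 0 of the 9 member windows. These are matches of letters, not sites.

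Of the 10 genes, 9 were higher in ribosome-bound RNA, by a log2 fold of 2.72 (Islr) to 4.27 (Aldh1a2). Slc47a1, the transporter with the fewest reads, had a negative fold that missed the threshold, and 0 members were called lower (0 at an unadjusted p under 0.05, and 0 with DESeq2). The test was edgeR's quasi-likelihood test over all libraries, with Benjamini-Hochberg adjustment over 17375 genes and a threshold of 0.05. All 10 members passed the filter on low counts. Over all tested genes 633 were called higher, which is 3.64%, and 376 lower, which is 2.16%. DESeq2 called 1580 of all 32531 symbols higher, which is 4.86%. No share of all genes at an unadjusted p is given here, so list counts at that threshold, here and below, have no background beside them. The members' median log2 fold was 3.62, beside 0.06 over all tested genes and 3.07 over those called higher. The fold sets captured RNA against total RNA, so it does not measure how many cells of a type the tissue held. Number of cells and RNA per cell cannot be told apart in it. Nor can capture by the tag and binding without it, as no untagged pull-down was analysed here.

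The count of 9 was not kept under every choice of libraries. It was 9 without IP 1, when 12.5% of all genes were called higher. Without IP 3 it was 2 (Foxc1 and Aldh1a2), when 1.91% of all genes were called. Without Input 1 it was 2 (Foxc1 and Slc6a13), when 0.123% of all genes were called. Without IP 4, Input 2, Input 3 or Input 4 it was 0. In each of these fits 9 members had an unadjusted p under 0.05. The share of all genes at that unadjusted threshold is not given here, so this 9 is a description only. The number of genes called higher in those fits fell from 633 to 10, 12, 4 and 4. IP and Input of the same number were run on the same sequencing lane, so the numbers were also fitted as a block. Input 2, whose number has no IP here, then adds nothing to the fold, and fewer libraries are left to measure the spread. With the replicate block 1 member, Aldh1a2, was called (log2 fold 4.13 ± 0.54 SE, edgeR adjusted p = 0.0323), and 96 genes in all, which is 0.553%. Each of the 9 had a positive fold in all these fits.

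**Figure D1:**
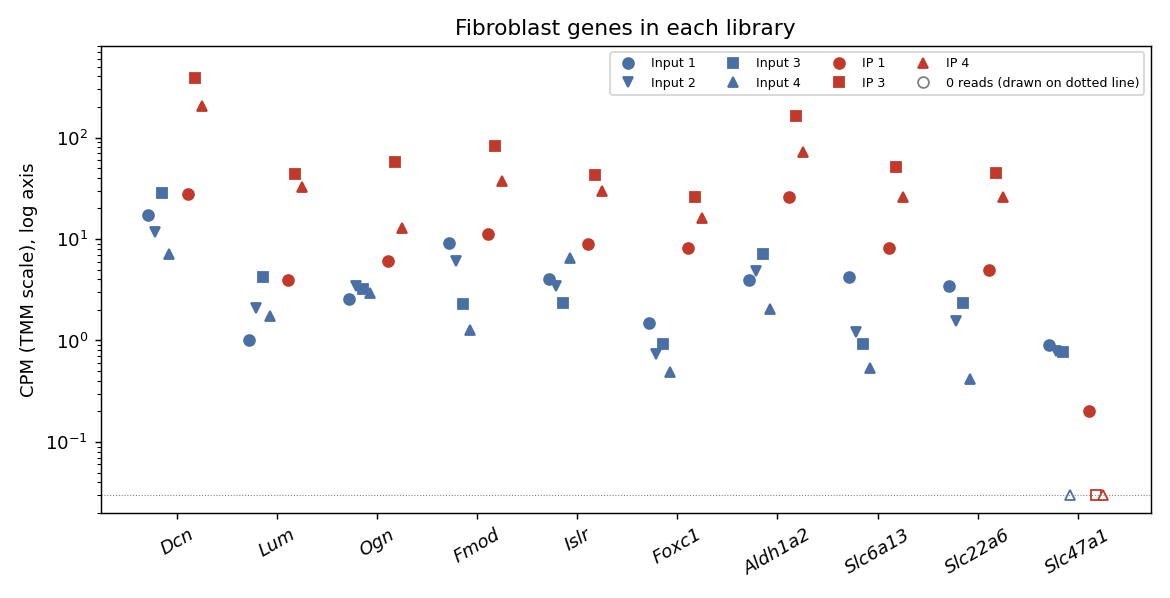
CPM (TMM scale, log axis) of the 10 genes in each library; blue marks are Inputs, red marks IPs, the shape gives the replicate number, and open marks on the dotted line had 0 reads. For 9 genes IP 3 is highest, then IP 4, then IP 1, while Slc47a1 has its highest values in Inputs 1, 2 and 3.

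**Figure D2:**
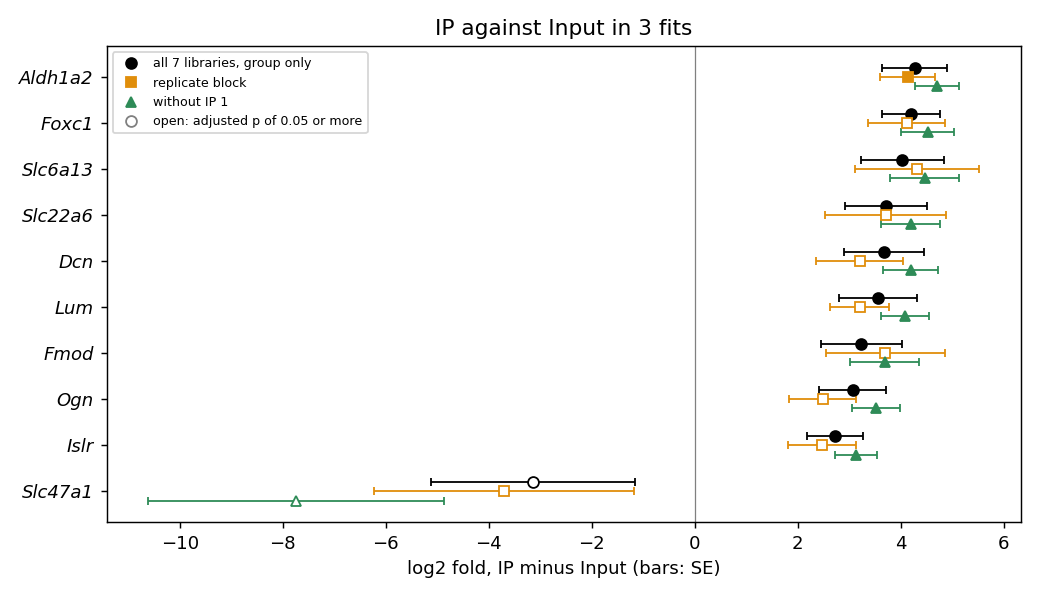
Log2 fold of IP over Input with its SE for each gene, from all 7 libraries with group only, all 7 with the replicate block, and 6 libraries without IP 1; filled marks have an edgeR adjusted p under 0.05. The 9 genes lie between 2.72 and 4.27 in the fit over all libraries, and with the block the Aldh1a2 mark alone is filled. In the block fit Input 2, whose number has no IP here, adds nothing to the fold.

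The small leucine-rich proteoglycans hold 4 of the members. Dcn encodes decorin, which binds collagen fibrils and TGF-beta (ENSMUSG00000019929.16, GRCm38 chromosome 10, 97479609 to 97518143, plus strand). It was the most abundant member by CPM, at 27.7 in IP 1, 387 in IP 3 and 206 in IP 4, against 17.2, 11.8, 28.6 and 7.17 in Inputs 1 to 4. IP 1 fell just below Input 3, so the groups overlapped in that library. Dcn was called higher in IP at log2 fold 3.68 ± 0.77 (SE; edgeR adjusted p = 0.0312), and had an adjusted p of 0.155 with the block. Against the Input of its own lane it was 1.61-fold higher in IP 1, 13.5-fold in IP 3 and 28.8-fold in IP 4.

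Lum encodes lumican, a keratan sulfate proteoglycan of collagen fibrils (ENSMUSG00000036446.5, chromosome 10, 97565128 to 97572703, plus strand). It stood at 3.92, 44.0 and 32.5 CPM in IP 1, 3 and 4, against 1.01, 2.08, 4.26 and 1.74 in Inputs 1 to 4. As with Dcn, IP 1 lay below Input 3 and above the other Inputs. Lum was called higher, at log2 fold 3.56 ± 0.76 (SE; edgeR adjusted p = 0.0293; 0.0606 with the block).

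Ogn encodes osteoglycin, also called mimecan (ENSMUSG00000021390.6, chromosome 13, 49608046 to 49624501, plus strand). Its Inputs were the most even of all members, at 2.55, 3.42, 3.25 and 2.97 CPM, a range of 1.34-fold. Its IP values were the least alike between IP 3 and IP 4, at 6.13, 57.4 and 13 CPM in IP 1, 3 and 4, so that IP 3 exceeded IP 4 by 4.43-fold. Every IP still lay above every Input. Ogn was called higher at log2 fold 3.06 ± 0.65 (SE; edgeR adjusted p = 0.0286; 0.142 with the block).

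Fmod encodes fibromodulin, a relative of lumican that binds the same kind of fibril (ENSMUSG00000041559.7, chromosome 1, 134037254 to 134048277, plus strand). It was at 11.1, 83.2 and 37 CPM in IP 1, 3 and 4, and at 9.07, 6.01, 2.27 and 1.28 in Inputs 1 to 4. The groups did not overlap, but IP 1 was only 1.23-fold above Input 1 of the same lane, while IP 3 was 36.7-fold and IP 4 29.0-fold above theirs. Fmod was called higher with the largest adjusted p of the 9 genes (log2 fold 3.23 ± 0.79 SE, edgeR adjusted p = 0.0468; 0.20 with the block).

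These genes lie in clusters with their relatives. Dcn and Lum share 203 kb of chromosome 10 with Kera and Epyc, Ogn shares 120 kb of chromosome 13 with Omd, Aspn and Ecm2, and Fmod shares 151 kb of chromosome 1 with Prelp and Optc. The neighbours did not all behave like the members. Kera, which encodes keratocan of the cornea, had 0 reads in every library. Epyc had 0.461, 0.463 and 0.449 CPM in IP against 1.64 to 3.22 in Input (log2 fold -2.26 ± 0.86 SE, edgeR adjusted p = 0.153). Optc, Omd and Ecm2 also missed the threshold, at log2 folds of -1.35, 2.03 and 0.84, and Aspn failed the filter on low counts. Prelp, which anchors basement membranes to matrix, was called higher: 26.6, 295 and 306 CPM in IP 1, 3 and 4 against 16.9 to 22.6 in Input (log2 fold 3.48 ± 0.66 SE, edgeR adjusted p = 0.0231; 0.147 with the block). Prelp shares 350 exon bases with an antisense model, and the strand setting is not given, so its count is uncertain. Among the 10 other tested proteoglycans of the family it was the single gene called by edgeR over all libraries, with a median log2 fold of 1.44 over the 10. DESeq2 called 3 of them higher and 1 lower, and with the block 0 were called. Bgn, biglycan, had 12, 150 and 81.4 CPM in IP against 2.93 to 12.9 in Input and fell just short (3.04 ± 0.76 SE, edgeR adjusted p = 0.0503).

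Islr encodes a secreted immunoglobulin and leucine-rich repeat protein of stromal cells (ENSMUSG00000037206.15, chromosome 9, 58156268 to 58204306, minus strand). It was at 8.91, 42.4 and 29.4 CPM in IP 1, 3 and 4, and at 4.05, 3.42, 2.32 and 6.56 in Inputs 1 to 4. The groups did not overlap, and Islr was the one member whose highest Input was Input 4. Islr was called higher, with the smallest fold of the 9 genes (log2 fold 2.72 ± 0.54 SE, edgeR adjusted p = 0.0231; 0.148 with the block). It shares 181 exon bases with its neighbour Islr2 on the same strand, so the assignment of reads there is uncertain. Islr2 was at 15.3, 20.7 and 36.9 CPM in IP and 14.5 to 24.5 in Input.

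Foxc1, the forkhead transcription factor, is a single-exon gene (ENSMUSG00000050295.4, chromosome 13, 31806633 to 31812476, plus strand). It had 8.21, 26.0 and 16.1 CPM in IP 1, 3 and 4, and 1.5, 0.738, 0.928 and 0.491 in Inputs 1 to 4. Its groups were the farthest apart of all members: the lowest IP was 5.49-fold above the highest Input. Foxc1 was called higher at log2 fold 4.19 ± 0.57 (SE; edgeR adjusted p = 0.0105; 0.0606 with the block). Within lanes it was 5.49-fold higher in IP 1, 28.0-fold in IP 3 and 32.8-fold in IP 4.

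Foxf2 and Foxq1 lie within the same 256 kb as Foxc1. Foxq1 had 0.841, 4.14 and 3.10 CPM in IP against 0.0491 to 1.09 in Input (log2 fold 2.60 ± 1.19 SE, edgeR adjusted p = 0.226), and it overlaps an opposite-strand gene. Foxf2 was at 0.020, 3.72 and 2.91 CPM in IP and 0.0982 to 1.23 in Input (1.80 ± 1.36 SE, edgeR adjusted p = 0.489). Foxc2, the closest relative of Foxc1, had 0 reads in every Input and 0.12, 3.57 and 0.566 CPM in IP 1, 3 and 4, and it failed the filter. Of the 4 forkhead relatives tested, Foxd1, a factor of stromal and pericyte precursors, was called higher: 1.44, 10.3 and 3.30 CPM in IP against 0.179 to 0.655 in Input (3.81 ± 0.91 SE, edgeR adjusted p = 0.0393; 0.18 with the block).

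Aldh1a2 encodes the enzyme that oxidises retinaldehyde to retinoic acid (ENSMUSG00000013584.5, chromosome 9, 71215789 to 71296243, plus strand). It was at 25.8, 162 and 71.9 CPM in IP 1, 3 and 4, against 3.92, 4.83, 7.18 and 2.04 in Inputs 1 to 4. The lowest IP was 3.59-fold above the highest Input, the second widest gap after Foxc1. Aldh1a2 was called higher with the largest fold of the members (log2 fold 4.27 ± 0.63 SE, edgeR adjusted p = 0.0129). Its ratio to the Input of the same lane, 6.57 in IP 1, 22.6 in IP 3 and 35.2 in IP 4, was the highest of all members in IP 1.

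Among 17 other tested genes of retinoid metabolism and signalling, the median log2 fold was 0.48 and 0 were called lower (1 lower at an unadjusted p under 0.05, 0 with DESeq2). Rdh10, which makes the retinaldehyde that Aldh1a2 uses, had 11.6, 38.8 and 25.2 CPM in IP against 7.02 to 10.4 in Input (1.56 ± 0.40 SE, edgeR adjusted p = 0.0507). Every IP of Rdh10 lay above every Input, yet the gene missed the threshold.

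The transporters held both called genes and the sparsest member. Slc6a13 encodes GAT2, a carrier of GABA and taurine (ENSMUSG00000030108.14, chromosome 6, 121300227 to 121337733, plus strand). It was at 8.17, 51.0 and 26.0 CPM in IP 1, 3 and 4, and at 4.27, 1.21, 0.928 and 0.540 in Inputs 1 to 4. No IP overlapped an Input, and the Inputs themselves spanned 7.90-fold, with Input 1 highest. Slc6a13 was called higher at log2 fold 4.03 ± 0.81 (SE; edgeR adjusted p = 0.0256; 0.165 with the block).

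Slc22a6 encodes OAT1, an exchanger of organic anions (ENSMUSG00000024650.5, chromosome 19, 8618039 to 8628299, plus strand). It stood at 5.01, 44.5 and 26.1 CPM in IP 1, 3 and 4, and at 3.41, 1.54, 2.32 and 0.418 in Inputs 1 to 4, again without overlap. The Input range, 8.16-fold, was the widest of the 9 called genes. Slc22a6 was called higher at log2 fold 3.71 ± 0.80 (SE; edgeR adjusted p = 0.0309; 0.203 with the block).

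Slc47a1 encodes MATE1, which exports organic cations (ENSMUSG00000010122.14, chromosome 11, 61343401 to 61378345, minus strand). It had 10, 0 and 0 reads in IP 1, 3 and 4, and 37, 35, 28 and 0 in Inputs 1 to 4. In CPM this is 0.20 in IP 1 and 0.907, 0.782 and 0.764 in Inputs 1, 2 and 3. IP 3 and IP 4, where the other 9 genes were highest, had no read of it, and neither had Input 4. Neither the log2 fold over all libraries (-3.14 ± 1.98 SE, edgeR adjusted p = 0.394) nor that without IP 1 (-7.74, edgeR adjusted p = 0.0702) passed the threshold. With at most 37 reads in a library, its direction was not called.

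Each of these carriers lies beside a relative. Slc6a12, 65.5 kb from end to end with Slc6a13, had 1.14, 7.53 and 3.59 CPM in IP and 0 to 3.31 in Input (log2 fold 1.51 ± 1.25 SE, edgeR adjusted p = 0.531). Slc22a8, which encodes OAT3 and spans 37 kb with Slc22a6, had 9.45, 42.9 and 19.0 CPM in IP and 2.24 to 15.4 in Input (1.98 ± 0.75 SE, edgeR adjusted p = 0.154). Slc47a2 had 0 reads in every library. Of 12 other tested carriers, 3 were called higher and 0 lower (5 and 0 at an unadjusted p under 0.05, 4 and 0 with DESeq2), with a median log2 fold of 0.97. These were Slc13a4, a sulfate carrier, at 33.7, 111 and 63.6 CPM in IP against 5.97 to 18.8 in Input (2.35 ± 0.46 SE, edgeR adjusted p = 0.0231), Slc6a20a, whose exons overlap opposite-strand models, and Slc13a3. With the block 0 of the 12 were called, and Slc13a4 had an adjusted p of 0.0887.

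The 9 called genes had the same order of IP libraries. In all 9, IP 3 exceeded IP 4 and IP 4 exceeded IP 1, an order seen in 26.2% of all tested genes and in 60.7% of genes called higher. IP 3 exceeded IP 4 by 1.35-fold (Lum) to 4.43-fold (Ogn), with a median of 1.88-fold, and IP 1 by 3.16-fold (Foxc1) to 14.0-fold (Dcn). Every one of the 9 was above the Input of its own lane in all 3 lanes. The 9 were called higher from these same libraries, so this is a description, and its share over all genes is not given here. Over the 10 members the median log2 ratio within a lane was 1.03 for number 1, 4.20 for number 3 and 4.82 for number 4. Over all tested genes these medians were 0.006, -0.019 and 0. In 7 of the 10 genes every IP lay above every Input, as in 9.55% of all tested genes. Among the Inputs, Input 4 was lowest for 6 of the 9 genes, and the highest was Input 1 for 4 of them and Input 3 for 3.

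Levels between genes were compared per kilobase (kb) of merged exon. In IP the mean CPM per kb was 38.2 for Aldh1a2, 35.5 for Dcn, 13.2 for Fmod, 11 for Lum, 10.01 for Islr, 9.94 for Ogn, 9.77 for Slc6a13, 6.32 for Slc22a6 and 2.87 for Foxc1, with Slc47a1 last. The SDs were of the size of the means (30.6 for Aldh1a2, 30.8 for Dcn, n = 3), and neighbours in this order had overlapping ranges, except Foxc1 over Slc47a1. Aldh1a2 and Dcn were the top pair in each IP, and by the longest transcript Dcn came first, at 44.1. In Input the mean CPM per kb was 2.78 for Dcn, 1.98 for Aldh1a2, 1.52 for Islr, 1.41 for Fmod, 1.19 for Ogn, 0.928 for Lum, 0.598 for Slc6a13 and 0.483 for Slc22a6. Slc47a1 and Foxc1 (0.156) were the lowest pair on average there, and all neighbours overlapped. Foxc1 was thus a low transcript in both groups while its fold was among the largest.

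**Figure D3:**
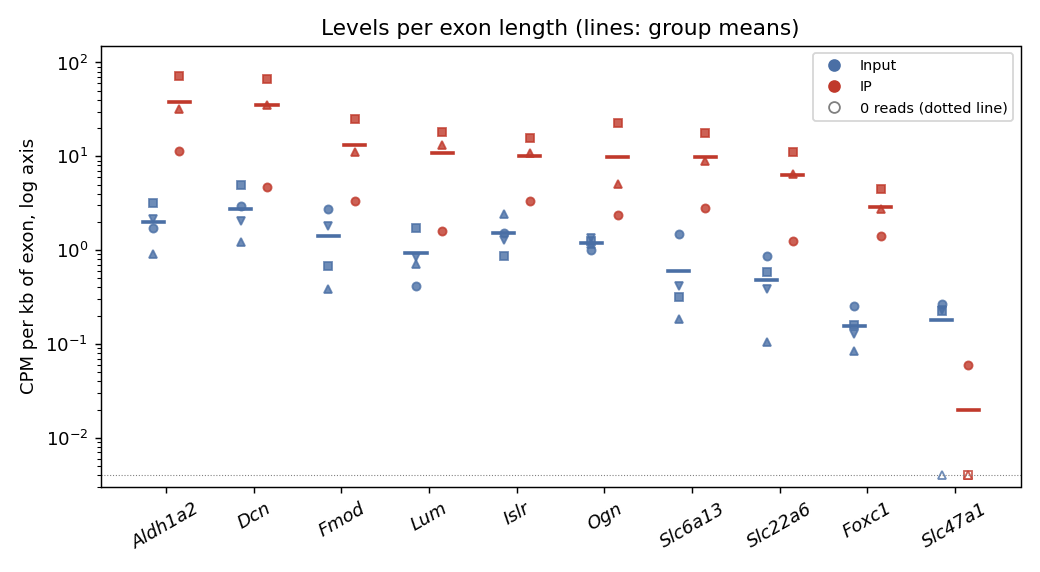
CPM per kb of merged exon (log axis) of each gene in each library, ordered by the IP mean, with lines at group means; circles, inverted triangles, squares and triangles are replicates 1, 2, 3 and 4, and open marks had 0 reads. Aldh1a2 (IP mean 38.2) and Dcn (35.5) lead, and the ranges of neighbouring genes overlap down to Foxc1.

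Other fibroblast genes were read beside the members. Of 15 tested matrix genes 3 were called higher and 0 lower (10 and 0 at an unadjusted p under 0.05, 8 and 0 with DESeq2), with a median log2 fold of 2.07. Over all symbols DESeq2 called 4.86% higher. The called genes were Col1a1 and Col1a2, the chains of type I collagen, and Fbln1, fibulin-1. Col1a1 was at 2.78, 29.1 and 31.1 CPM in IP 1, 3 and 4 against 0.540 to 2.43 in Input (4.02 ± 0.80 SE, edgeR adjusted p = 0.0231; 0.229 with the block). Col3a1 was at 2.56, 22.8 and 8.29 CPM in IP against 0.0737 to 1.55 in Input and missed the threshold (4.13 ± 1.11 SE, edgeR adjusted p = 0.0584). With the block 2 of the 15 were called, Col1a2 and Fbln1 (edgeR adjusted p = 0.0412 and 0.0443).

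Of 12 tested fibroblast identity genes 3 were called higher and 0 lower (10 and 0 at an unadjusted p under 0.05, 9 and 0 with DESeq2), with a median log2 fold of 2.50. They were Serping1, the C1 inhibitor, Igfbp2, which binds insulin-like growth factors, and Foxd1. Serping1 stood at 8.99, 109 and 50.6 CPM in IP against 3.46 to 6.62 in Input (3.53 ± 0.67 SE, edgeR adjusted p = 0.0231; 0.178 with the block). Pdgfra, a receptor on fibroblasts and on oligodendrocyte precursors, did not pass (0.35 ± 0.36 SE, edgeR adjusted p = 0.627), with 30.01, 86.4 and 82.5 CPM in IP and 35.6 to 61.3 in Input. With the block 0 of the 12 were called, and Igfbp2 had an adjusted p of 0.143. Without IP 1, when 12.5% of all genes were called higher, 9 matrix genes, 10 identity genes, 3 proteoglycans, 5 carriers and 9 mural markers were called higher, counting also genes that passed the filter in that fit only.

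Of 8 tested genes of the arachnoid and its barrier 1, Ptgds, was called higher and 0 lower (2 and 0 at an unadjusted p under 0.05, 2 and 0 with DESeq2), with a median log2 fold of -0.13. Ptgds, the prostaglandin D synthase secreted into cerebrospinal fluid, was at 738, 5465 and 4845 CPM in IP against 356 to 462 in Input (3.10 ± 0.55 SE, edgeR adjusted p = 0.0192; 0.129 with the block). Crabp2 had 2.34, 8.52 and 2.13 CPM in IP against 0.201 to 1.18 in Input (2.46 ± 0.88 SE, edgeR adjusted p = 0.129). Cdh1, the cadherin of arachnoid barrier cells, had 1.10, 0.0220 and 0.156 CPM in IP and 0.540 to 1.42 in Input (edgeR adjusted p = 0.594).

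Markers of other cells moved beside the fibroblast genes. Of 12 mural cell markers (pericytes and smooth muscle) 4 were called higher and 0 lower (10 and 0 at an unadjusted p under 0.05, 10 and 0 with DESeq2), with a median log2 fold of 2.65. Their summed CPM ran from 69.4 to 876 in IP and from 32.8 to 55.8 in Input, beside 105 to 898 and 23.2 to 52.8 for the members. Vtn, vitronectin, was at 14.6, 239 and 90.0 CPM in IP against 3.61 to 8.02 in Input (4.51 ± 0.78 SE, edgeR adjusted p = 0.0185), and Acta2, the actin of smooth muscle, at 15.1, 231 and 154 against 3.07 to 13.3. With the block 0 mural markers were called. The sum over members was 1.52, 1.02 and 1.20 times that over mural markers in IP 1, 3 and 4, and 0.692 to 0.985 times in Input. These sums are not divided by exon length. Dcn alone made up 26.3%, 43.1% and 45.0% of the members' sum in IP 1, 3 and 4, and 30.9% to 54.2% in Input. The ependymal sum ran from 217 to 3058 CPM in IP and from 28.9 to 51.2 in Input, and the members' sum was 0.18 to 0.485 of it in IP against 0.524 to 1.26 in Input. The part of mural or ependymal RNA in the members' values was not tested.

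The other cell type lists had medians nearer 0. Of 11 endothelial markers 1, Cdh5, was called higher, with a median log2 fold of -0.21, and the summed CPM was 18.8 to 38.0 in IP and 21.6 to 32.4 in Input. At an unadjusted p under 0.05, and also with DESeq2, 1 endothelial marker was higher and 1 lower. Of 8 markers of perivascular and meningeal macrophages, cells that share the fibroblasts' spaces, 0 were called higher or lower (at an unadjusted p under 0.05, 0 higher and 1 lower; 0 with DESeq2), with sums of 5.27 to 15.3 and 5.40 to 12.1. Choroid plexus epithelium had 0 of 10 called (2 higher at an unadjusted p under 0.05; 0 with DESeq2) and a median of 0.29. Of 10 astrocyte markers 1, Gfap, was called higher, of 8 microglial and 10 neuronal markers 0, and of 10 oligodendrocyte markers 2, Mobp and Mbp, were called lower. At an unadjusted p under 0.05, 2 microglial markers were higher and 2 neuronal markers lower, and DESeq2 called 0 of either list. At the same unadjusted p, 3 astrocyte markers were higher and 1 lower, against 2 and 0 with DESeq2. For oligodendrocyte markers 1 was higher and 4 lower at that p, against 0 and 3 with DESeq2. With the block the calls of Cdh5, Gfap, Mobp and Mbp were lost (edgeR adjusted p = 0.244, 0.165, 0.107 and 0.167).

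**Figure D4:**
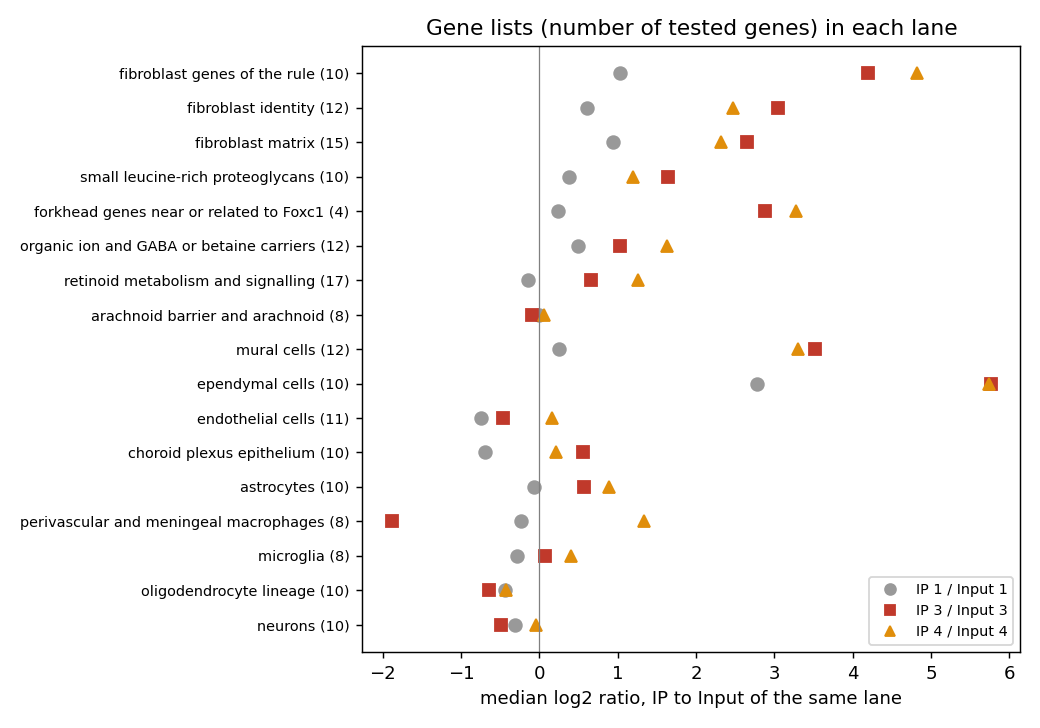
Median log2 ratio of IP to the Input of the same lane for each gene list, with the number of tested genes in brackets; each mark is 1 lane (circle number 1, square number 3, triangle number 4). The fibroblast genes of the rule lie at 1.03, 4.20 and 4.82, the mural markers at 0.25, 3.52 and 3.31, and the ependymal markers at 2.77, 5.76 and 5.74 for numbers 1, 3 and 4.

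The genes nearest to the members in profile were sought among 15217 genes with a mean of at least 1 CPM, by the root mean square (RMS) difference of log2 CPM, centred on each gene's mean over the 7 libraries. The nearest 6 were Akip1 (RMS difference 0.25), Ddo, Tbata, 4932443I19Rik, Fbxw10 and Ttc25. Akip1, a partner of protein kinase A, had 9.61, 54.7 and 33.3 CPM in IP 1, 3 and 4 and 3.85, 2.68, 3.66 and 1.57 in Inputs 1 to 4. Slc47a1 pulls on the mean profile, and 2 of these 6 stayed when it was left out, a choice made after seeing the data. The nearest were then Akip1 (0.15), Dyx1c1, 4932443I19Rik, Flnc, Efcab10 and Cdh5. Without IP 1, 3 of the first 6 stayed. The members did not head this order. In the profile without Slc47a1, to which they contributed, Dcn ranked 19, Aldh1a2 20, Slc22a6 30, Foxc1 31, Fmod 52, Slc6a13 94, Ogn 95, Lum 136 and Islr 210 among all tested genes.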

How the data were processed

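The authors deposited 1 table of raw read counts by gene symbol for each library. STAR 2.0.0e, HTSeq and mm10 are named in the submitters' processing notes. Settings, annotation, strandedness and kit are not given in sources used here. Lines naming no gene (40.1% to 52.1% per library) stayed out. Among them, reads counted as ambiguous differed between the groups, with 1432745 to 1661754 in IP and 7694539 to 11377831 in Input. Their effect on genes with overlapping exons was not tested. Genes were filtered with filterByExpr (minimum count 10, minimum total count 15), scaled with TMM and tested with edgeR 4.0.16 in R 4.3.3 (robust quasi-likelihood, group only). SE is the fold divided by the root of the test statistic. Lists carry no set test. Lane ratios of medians use log2 CPM with a prior count of 2; other ratios are plain. The code was tested on simulated data. Alternatives were DESeq2 1.42.0, other scalings, no filter, the replicate block and leaving out each library.

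The members and lists were chosen with earlier results of these data known. Named are the members, Dcdc2a, Foxj1, the 2 genes of smallest p of each list and the 6 nearest profiles; other names were chosen after their values were seen. One gene under this rule is not reported here. The text also leaves out Egfl7, Ccdc153, Mia, Kl, F5, Sox9, Lyve1, Stab1, Sall1, Csf1r, Snap25 and Gad2. Nothing in the labels says that libraries come from separate animals, so p-values measure only the spread between these libraries. The replicate numbers were taken to pair libraries through a shared lane (numbers 1, 3 and 4 on lanes 4, 2 and 3). Across genes, deviations of same-numbered libraries correlated at 0.0318, 0.0426 and 0.0258, in each case above that IP's correlation with the other Inputs. Positions and lengths come from GENCODE M21 (GRCm38, the assembly of mm10), 1-based, matched by symbol.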

Additional observations from a re-analysis of the deposited data

Results flagged for a closer look

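Slc47a1 was at 0 CPM in Input 4, against 0.907, 0.782 and 0.764 in Inputs 1, 2 and 3. By CPM, Input 4 lay farther from the other Inputs than the spacing of 4 values allows at the 95% level of Dixon's test. The raw reads, 37, 35, 28 and 0 in Inputs 1 to 4, fell short of that level, so the flag depends on the CPM scale. Among 4 values per gene, chance gives such a flag in about 1 of 20 groups.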

How the results depend on the processing

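The count of 9 members called higher was 9 with DESeq2, with DESeq2 size factors and with total counts, 7 without the filter on low counts, and 1 with the replicate block. In the same order, 4.86%, 3.66%, 3.75%, 2.33% and 0.553% of all genes were called higher. Leaving out 1 library gave 0 to 9 members. Genes called higher in all, 633, were 1580 with DESeq2, 96 with the replicate block and 4 to 2259 without 1 library. Genes called lower, 376, were 1142 with DESeq2, 33 with the replicate block and 16 to 1724 without 1 library. The median log2 fold of the members kept its sign, from 2.93 (without IP 3) to 4.13 (without IP 1), and was 3.45 with the replicate block. No member's fold changed sign where it was tested. Slc47a1 failed the filter without Input 1, 2 or 3 and has no value there. Slc47a1 had at most 37 reads in a library, so its values carry the widest counting error of the members. The causes of these shifts were not tested.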
